A study of Mus musculus with 12 samples.

Results

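The comparison described here set 4 mouse kidneys, called ischemia set B, against 4 others, called ischemia set A, in kidneys removed 24 h after an ischemia of 20 min. It covered the well-expressed genes, meaning those with a mean of at least 10 CPM (counts scaled to a fixed library size) in either set. By this rule 6474 genes were included, of 11664 genes that passed the low-count filter and 23420 genes in the count table. A mean of 10 CPM or more was reached in both sets by 5952 genes, in set A only by 269 and in set B only by 253. For these 269 and 253 genes the rule itself fixed which set had the higher mean. All 6474 genes passed the low-count filter, and they held 98.4% of the counts in each set. The genes nearest the limit were Sh2b3 (9.97 CPM in its higher set) and Zmpste24 (9.98 CPM), just outside it, and Slc25a22 (10.0006 CPM) and Stxbp4 (10.0062 CPM), just inside.

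Gene expression was measured by RNA sequencing in 12 kidneys of adult male C57BL/6J mice, with 4 kidneys in each of 3 groups. The control kidneys were removed by nephrectomy, whereas set A and set B had their vascular pedicle clamped and then reperfused for 24 h. The labels also give the clamping protocol to the control kidneys. By the study's methods, the ischemia was performed with a remotely operated clamp on the left pedicle, either in conscious mice after a brief isoflurane sedation or in mice anaesthetised with ketamine and xylazine. Titles and group fields of the ischemic kidneys disagree. For set A, titles say anaesthetised where the group field says conscious, and for set B the 2 fields are the other way round. Neutral names are therefore used, and which set was anaesthetised is not stated.

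The proximal tubule reabsorbs glucose, amino acids, lactate and bicarbonate from the filtered fluid. Its cells burn fatty acids and lactate, make glucose, and are the cells of the kidney most exposed to a lack of oxygen. After ischemia they lose their brush border and much of their transport and metabolic program, and surviving cells express injury genes such as Havcr1 (kidney injury molecule 1), Lcn2 (a secreted siderophore-binding protein), keratins and Spp1 (osteopontin). Which of these genes differ between ischemic kidneys handled in different ways was the question that the comparison addressed.

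Total counts were 16814285 to 44793350 in set A (median 27158370), 15367342 to 29905140 in set B (median 18181498) and 20364386 to 39155807 in the controls. The detection floor of 3 counts was worth 0.0661 to 0.190 CPM, and 21 of the well-expressed genes had an ischemic kidney at or below it. These limits cover counting error only. The table lists 9207 genes at 0 in all 12 kidneys, Eno1 and Rps27 among them, which every cell uses, so a listed 0 is not read here as absence. Replicate 4 of set B stood apart from the other ischemic kidneys. On the first principal component of the well-expressed genes (33.0% of the variance), it lay at 52.7 whereas the other 7 lay between -17.8 and 5.21. Defining kidney markers were present in all 12 kidneys, and the summed CPM of 10 lists of cell type markers is plotted by kidney. The list of thick ascending limb and macula densa markers, cells of the loop of Henle, summed to 1118 CPM in that kidney and to 435 to 625 CPM in the other ischemic kidneys. The principal cell list, for the water-reabsorbing cells of the collecting duct, summed to 367 CPM there and to 117 to 197 CPM elsewhere. Markers of the early proximal tubule summed to 766 CPM in this kidney and to 1087 to 2222 CPM in the others. In whole kidneys, fewer cells of a type and less RNA per cell cannot be told apart. The part of this kidney in single results was not tested beyond leaving it out. Without it, the median log2 fold change between the sets turned sign in 10 of the 36 gene lists described below.

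**Figure D1:**
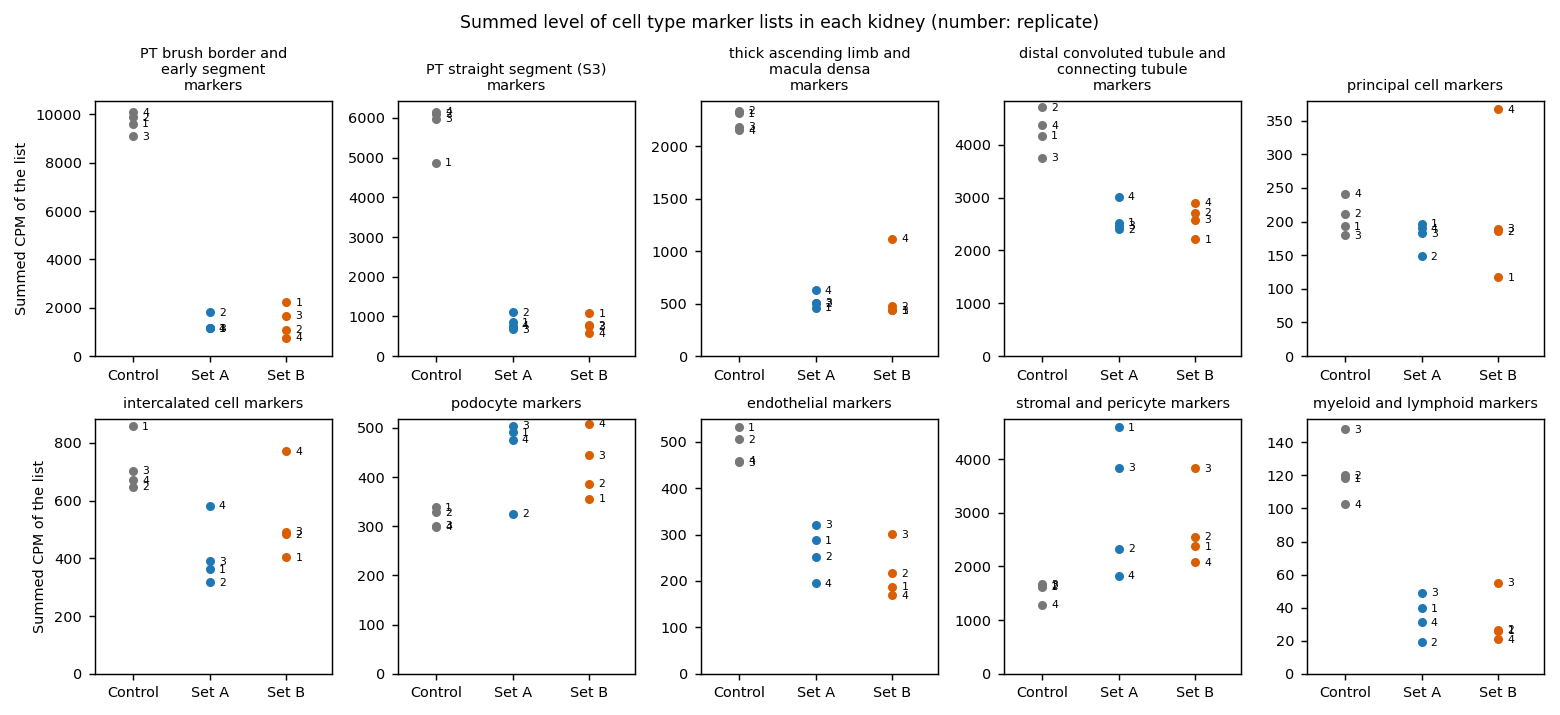
Summed CPM of 10 lists of cell type markers (y axis, from 0) in each of the 4 control, 4 set A and 4 set B kidneys, with the replicate number beside each point. Replicate 4 of set B has the highest sums of thick ascending limb (1118 CPM) and principal cell (367 CPM) markers among the ischemic kidneys and the lowest sum of early proximal tubule (PT) markers (766 CPM), whereas all 8 ischemic kidneys lie far below the controls for the PT lists.

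Between the sets, 1 of the 6474 well-expressed genes, Slc5a12, passed the threshold of 0.05 (quasi-likelihood F-test of edgeR, Benjamini-Hochberg adjusted over all genes tested). It was also the only such gene among all 11664 (0.00857%). Among well-expressed genes, the next smallest edgeR adjusted p was 0.316 for Sh2d3c. At an unadjusted p below 0.05 there were 357 well-expressed genes (5.51%), 179 higher and 178 lower in set B. Over all genes tested this share was 5.03%, made up of 2.41% higher and 2.62% lower. A total of 184 well-expressed genes (2.84%) had no overlap between the sets, meaning that every kidney of one set lay above every kidney of the other, with 95 higher and 89 lower in set B. Over all genes tested this was 2.61%, made up of 1.29% higher and 1.32% lower. All these shares were near the background. The median log2 fold change (set B over set A, here and below) was 0.0021, and the 5th and 95th percentiles were -0.53 and 0.50.

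The size of the difference that could have been seen depended on the level. In the 2250 genes at 10 to 30 CPM in their higher set, the median absolute log2 fold change was 0.27 with a median standard error of 0.37. It was 0.16 in the 2238 genes at 30 to 100 CPM (standard error 0.22), 0.11 in the 1852 genes at 100 to 1000 CPM (standard error 0.15) and 0.08 in the 134 genes above 1000 CPM (standard error 0.11). In all 4 bands the typical difference was smaller than its standard error. The 95% confidence interval of the fold change lay within 2-fold in either direction for 4897 genes (75.6%), including 97.1% of the genes at 100 to 1000 CPM and 100% of those above. At 10 to 30 CPM this held for 42.8% only, so that a 2-fold difference was not excluded for most of these genes. A fold change of at least 2 was estimated for 93 genes, 42 higher and 51 lower in set B, of which 59 had an unadjusted p below 0.05. Of these 93 genes, 78 belonged to the lowest band.

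**Figure D2:**
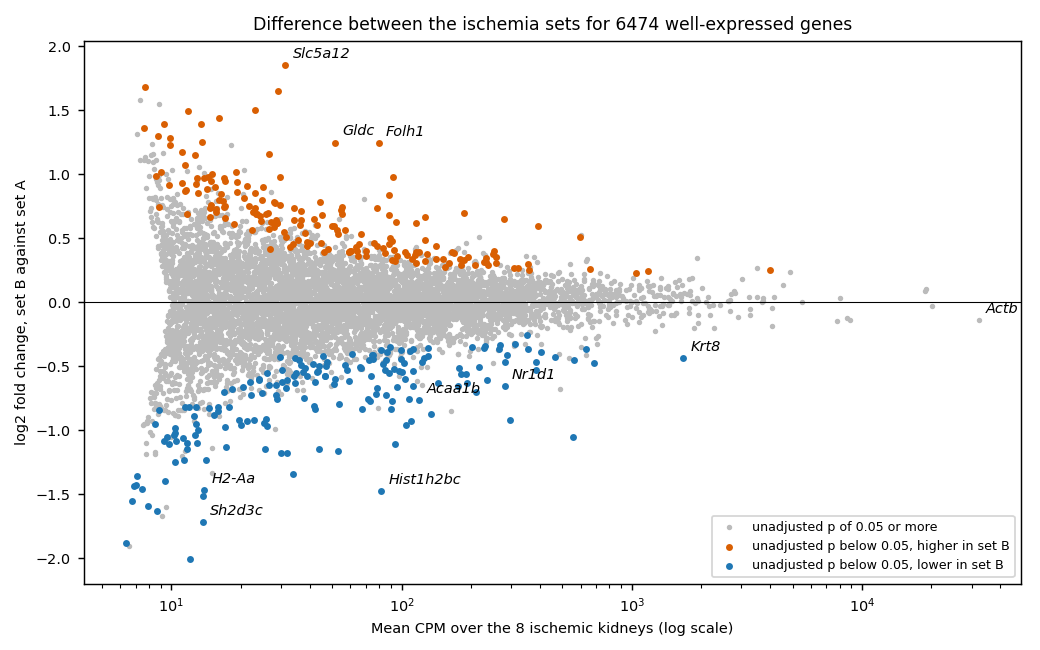
Log2 fold change, set B over set A (y axis), against mean CPM over the 8 ischemic kidneys (x axis, log scale) for 6474 well-expressed genes, each a point. Genes at an unadjusted p below 0.05 are orange (179 higher in set B) or blue (178 lower), others grey; the scatter narrows as the level rises, and Slc5a12, at 1.85, is the highest point.

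Slc5a12 (chr2:110597299-110649345, plus strand) encodes a sodium-coupled monocarboxylate transporter of the proximal tubule brush border, which takes up lactate. In replicate order, here and below, its level was 17.5, 13.5, 9.34 and 14.1 CPM in set A and 75.2, 28.4, 62.2 and 30.03 CPM in set B. The control kidneys had 153, 119, 129.7 and 145 CPM. All 4 kidneys of set B thus lay above all 4 of set A and below all controls, and replicates 1 and 3 were the highest within set B. The gene kept 35.8% of its control level in set B and 9.95% in set A. The log2 fold change was 1.85 (95% confidence interval 1.26 to 2.44, standard error 0.28, edgeR adjusted p = 0.0328). An exact permutation test of log2 CPM gave p = 0.0286, which is the smallest value that 4 kidneys against 4 can give, and which every gene without overlap shares. The direction was the same in all 21 alternative settings, whereas the adjusted p of the respective tool was below 0.05 in 8 of them and ranged from 2.257e-06 to 0.696. Leaving out any of the controls, any kidney of set A, or replicate 1 or 3 of set B took the edgeR adjusted p above 0.05, up to 0.336. A related transporter, Slc5a8, which carries lactate with higher affinity, was under the level limit. It had 3.905, 9.67, 3.75 and 8.97 CPM in set A and 5.36, 3.23, 3.72 and 2.29 CPM in set B, against a control mean of 149.8 CPM, and the sets overlapped (log2 fold change -0.81, standard error 0.31, edgeR adjusted p = 0.9299).

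Markers of the early proximal tubule, Slc5a12 among them, did not all differ in the same direction. In the list of brush border and early segment markers, all 13 well-expressed genes passed the adjusted threshold against the controls in each set, all lower. The median log2 fold changes were -2.47 (set A) and -2.18 (set B). Against the controls, 22.3% (set A) and 22.8% (set B) of all genes tested passed in either direction. Among well-expressed genes these shares were 35.2% and 35.5%. Set B was above set A by the estimate for 9 of the 13 and below it for 4, with a median of 0.47. At an unadjusted p below 0.05, 4, again with Slc5a12, were higher in set B and 1 was lower, where 2.41% of all genes tested were higher and 2.62% lower. Slc34a1, the sodium-phosphate cotransporter, had 413, 643, 333 and 294 CPM in set A and 685, 323, 488 and 209 CPM in set B. The range of set A lay inside that of set B, and the means were 8.55% and 8.67% of the control mean. The glucose transporter gene Slc5a2 had 35.3, 45.9, 38.1 and 71.6 CPM in set A and 137, 37.01, 62.3 and 32.4 CPM in set B, where replicate 1 alone was above all of set A.

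Gatm, the mitochondrial enzyme that starts creatine synthesis, had 62.7, 74.1, 70.9 and 45.7 CPM in set A and 179, 94.6, 128 and 50.5 CPM in set B. Replicates 1, 2 and 3 of set B were above all of set A, whereas replicate 4 was within its range. The log2 fold change was 0.83 (standard error 0.25, edgeR adjusted p = 0.9299), and without that kidney it was 1.08 with an edgeR adjusted p of 0.0195, whereas without replicate 1 of set B it was 0.52. Slc4a4, which returns bicarbonate to the blood across the basolateral membrane, had 135, 246, 185 and 301 CPM in set A and 463, 247, 429 and 219 CPM in set B. Again only replicates 1 and 3 of set B, at the top of the set for Slc5a12 too, were clearly above set A (log2 fold change 0.65, standard error 0.23). The neutral amino acid transporter Slc6a19 had 7.84, 11.6, 8.06 and 23.6 CPM in set A and 35.9, 16.3, 17.5 and 15.4 CPM in set B, and Slc7a8, which passes such amino acids on to the blood, had 84.3, 60.7, 93.02 and 125 and 161, 107, 161 and 129 CPM. Their log2 fold changes were 0.75 and 0.62 (standard errors 0.33 and 0.19). For Slc6a19, replicate 1 was far above the rest of set B, and the log2 fold change went from 0.37 without that kidney to 1.22 without replicate 4 of set A. In the opposite direction, Slc22a6, the basolateral uptake transporter of organic anions, had 244, 351, 249 and 196 CPM in set A and 265, 107, 177 and 91.6 CPM in set B. Its replicate 1 of set B was within the range of set A while replicates 2, 3 and 4 were below it (log2 fold change -0.698, standard error 0.25, edgeR adjusted p = 0.9299).

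The next 3 genes were outside the rule for named genes or outside the lists. They were chosen after their values were seen, because each passed the adjusted threshold with 1 kidney of set B left out. Folh1, a brush border peptidase that cleaves glutamate from folates, had 37.6, 50.8, 34.3 and 66.6 CPM in set A and 164, 108, 124 and 51.9 CPM in set B, with a control mean of 149.7 CPM. Replicates 1, 2 and 3 of set B exceeded all of set A (log2 fold change 1.24, standard error 0.27, edgeR adjusted p = 0.349), and without replicate 4 the log2 fold change was 1.48 with an edgeR adjusted p of 0.0023, whereas without replicate 1 of set B it was 1.002. Galnt11, an enzyme that starts O-glycans on proteins, was at 14.7, 19.4, 15.1 and 16.8 CPM in set A and 35.1, 18.5, 29.02 and 64.7 CPM in set B. Here replicate 4 was the highest of set B and replicate 2 was within set A (log2 fold change 1.16, standard error 0.26). Without replicate 2 of set B, the estimate for Galnt11 was 1.37 with an edgeR adjusted p of 0.0279, and without replicate 4 it was 0.74. Abat, which breaks down gamma-aminobutyric acid, had 28.8, 29.2, 27.1 and 36.7 CPM in set A, but 52.9, 47.6, 56.9 and 8.82 CPM in set B, so that replicate 4 was the lowest of all 8 kidneys while the other 3 were the highest. Its log2 fold change was 0.45 (standard error 0.33) and 0.79 without replicate 4, with an edgeR adjusted p of 0.0469, but 0.27 without replicate 3 of set B.

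Glucose production in the proximal tubule ends with glucose-6-phosphatase (G6pc) and the transporter that feeds it, Slc37a4, both in the endoplasmic reticulum. Both genes lay higher in every kidney of set B, although neither passed the adjusted threshold. Slc37a4 (chr9:44396946-44402966) had 24.1, 17.8, 18.2 and 19.2 CPM in set A and 36.9, 25.9, 35.01 and 29.7 CPM in set B (log2 fold change 0.69, standard error 0.17, edgeR adjusted p = 0.591). G6pc had 0.603, 10.9, 6.39 and 11.99 CPM in set A and 15.03, 13.2, 29.9 and 19.3 CPM in set B, where replicate 1 of set A was close to 0 (log2 fold change 1.39, standard error 0.48). Control means were 215 CPM for Slc37a4 and 167 CPM for G6pc, so both genes stayed at 14.8% and 11.6% of control in set B. The mitochondrial phosphoenolpyruvate carboxykinase gene, Pck2, lay in the opposite order without overlap, at 60.8, 47.5, 49.02 and 45.6 CPM in set A and 42.6, 42.2, 23.1 and 31.5 CPM in set B. Its cytosolic counterpart Pck1, the rate-limiting enzyme of gluconeogenesis, ranged widely, from 208, 582, 479.8 and 717 CPM in set A to 517, 363, 1348 and 624 CPM in set B, and the sets overlapped. Of the 10 well-expressed genes of this list, 3 had an unadjusted p below 0.05, 2 of them higher in set B and 1 lower (5.03% of all genes tested in either direction), and the median was 0.16 (0.29 without replicate 4 of set B). Against control, the adjusted threshold was passed by 10 for set A and by 9 for set B (22.3% and 22.8% of all genes tested).

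Among amino acid enzymes, Gldc (chr19:30098441-30175441), the decarboxylase of the glycine cleavage system, had the second smallest p of the genes higher in set B without overlap. Its level was 20.7, 39.2, 19.4 and 43.4 CPM in set A and 77.995, 84.5, 83.8 and 44.3 CPM in set B, against 76.3, 42.4, 44.9 and 46.8 CPM in the controls. The lowest kidney of set B, replicate 4, was only just above the highest kidney of set A. Replicates 1, 2 and 3 of set B also lay above all 4 controls, while set A had 3 kidneys below them. The log2 fold change was 1.25 (95% confidence interval 0.64 to 1.85, standard error 0.29, edgeR adjusted p = 0.462). Prodh, the first enzyme of proline breakdown, had 11.97, 14.5, 11.7 and 6.02 CPM in set A and 24.7, 15.2, 12.2 and 22.8 CPM in set B (log2 fold change 0.76, standard error 0.29). Of the 21 genes in the amino acid catabolism list, 3 had an unadjusted p below 0.05, Gldc and Prodh among them, all higher in set B (2.41% of all genes tested). The median of the list was 0.10, and its member with the highest CPM, Glud1 (glutamate dehydrogenase), had 4469.98, 4734, 3725 and 4497 and 3825, 3270.04, 4932 and 3281 CPM.

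Nr1d1 and Nr1d2 encode the REV-ERB nuclear receptors, repressors of the circadian clock that bind heme and also control lipid genes. Nr1d1 (chr11:98767932-98775377, minus strand) had 401, 353, 322 and 299 CPM in set A and 217, 172, 240.2 and 244 CPM in set B, with 423, 530.03, 497 and 627 CPM in the controls. Nr1d2 (chr14:18204056-18239106, minus strand) had 84.6, 103, 94.3 and 85.7 CPM in set A and 72.8, 46.4, 57.9 and 38.3 CPM in set B, against 104, 176, 234 and 201 CPM in the controls. For both genes all kidneys of set B were below all kidneys of set A. The log2 fold change was -0.65 for Nr1d1 (95% confidence interval -0.96 to -0.35, standard error 0.15, edgeR adjusted p = 0.3898) and -0.77 for Nr1d2 (standard error 0.22, edgeR adjusted p = 0.9299). Against control, the log2 fold changes of Nr1d1 were -0.596 in set A and -1.25 in set B. Nr1d1 overlaps the antisense gene Thra at its end, and as strand use in counting was not given in the sources used here, reads of the 2 genes may not be separated. Of the 11 well-expressed genes of the circadian clock list, these 2 had an unadjusted p below 0.05 (2.62% of all genes tested were lower at this p). The other 9 well-expressed genes of the list had an unadjusted p of 0.05 or more. Arntl, the activator that the REV-ERB receptors repress, had 29.1, 27.6, 19.2 and 40.8 CPM in set A and 37.3, 40.6, 24.3 and 24.2 CPM in set B (log2 fold change 0.12, standard error 0.65). Per1, a clock gene that glucocorticoids induce, was at 90.9, 71.8, 76.3 and 133 and 65.1, 95.4, 57.6 and 110.5 CPM. Both overlapped between the sets and had wide errors.

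As both receptor genes lay lower in every kidney of set B, their promoters are shown, from RefSeq on GRCm38.p6 (the mm10 assembly), each 300 bases that end 50 bases past the annotated start, 5′ to 3′ on the minus strand. Capitals mark AGGTCA, the core letters of the sites that the receptors themselves bind. The Nr1d1 sequence is chr11:98775328-98775627 and the Nr1d2 sequence is chr14:18239057-18239356.
Nr1d1: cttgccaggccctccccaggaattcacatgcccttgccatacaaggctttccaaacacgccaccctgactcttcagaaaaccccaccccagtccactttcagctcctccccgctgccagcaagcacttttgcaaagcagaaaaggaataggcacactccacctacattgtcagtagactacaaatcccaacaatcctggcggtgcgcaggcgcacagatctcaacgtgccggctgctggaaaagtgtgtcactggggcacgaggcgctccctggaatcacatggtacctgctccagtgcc
Nr1d2: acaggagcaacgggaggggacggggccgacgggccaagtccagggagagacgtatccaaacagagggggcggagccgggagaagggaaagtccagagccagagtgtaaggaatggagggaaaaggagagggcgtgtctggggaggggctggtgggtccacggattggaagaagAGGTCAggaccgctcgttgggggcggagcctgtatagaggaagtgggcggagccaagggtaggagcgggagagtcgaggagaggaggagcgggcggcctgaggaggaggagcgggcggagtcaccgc
The letters AGGTCA were searched on both strands and found once, in the Nr1d2 window, 77 bases before the start. They occur in 16.3% of 32851 RefSeq promoter windows of this length. The canonical E-box CACGTG, the letters that clock activators bind, occurs in 7.15% of the windows and in neither of these 2. A match is a description of the letters only.

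Plin2 (chr4:86626910-86670217), which coats lipid droplets, had 111, 138, 135 and 166 CPM in set A and 108, 101, 77.4 and 64.1 CPM in set B, far above the 10.3, 10.1, 11.5 and 10.8 CPM of the controls. Replicate 1 of set B was close to the lowest kidney of set A, but the sets did not overlap (log2 fold change -0.65, standard error 0.18, edgeR adjusted p = 0.887). Acaa1b, a thiolase of peroxisomal fatty acid oxidation, had 142, 149, 114 and 196 CPM in set A and 91.3, 78.9, 112 and 71.6 CPM in set B (log2 fold change -0.76, standard error 0.18, edgeR adjusted p = 0.507). Set A was on average at 80.3% and set B at 47.3% of the control mean of 187 CPM. Cyp4a10 and Cyp4a31, fatty acid hydroxylases that PPARA induces, had 38.5, 36.6, 24.5 and 29.9 and 16.001, 18.02, 11.8 and 15.1 CPM in set A, and 24.6, 18.6, 25.6 and 13.7 and 11.4, 3.796, 11.9 and 7.302 CPM in set B. Both overlapped, with log2 fold changes of -0.65 and -0.82 (standard errors 0.26 and 0.34). Acaa1b and the Cyp4a genes have near-identical copies, and reads may be split between copies. These were the 3 genes of the 20 in the fatty acid oxidation and PPARA list at an unadjusted p below 0.05, all lower in set B (2.62% of all genes tested). Of the 20, 11 had a higher estimate in set B, and the median was 0.04 with all kidneys and -0.0601 without replicate 4 of set B.

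Retsat (chr6:72598602-72607488), an enzyme that saturates retinol, had 27.5, 30.9, 21.99 and 25.4 CPM in set A and 12.7, 16.96, 15.9 and 8.82 CPM in set B, without overlap. Controls had 50.99, 38.2, 51.2 and 50.9 CPM, above all ischemic kidneys (log2 fold change between the sets -0.96, standard error 0.24, edgeR adjusted p = 0.652). Adh1, an alcohol dehydrogenase that oxidizes retinol, lay in the opposite order, at 104, 135, 59.8 and 91.8 CPM in set A and 195, 119.96, 174 and 129.97 CPM in set B, with overlap (log2 fold change 0.67, standard error 0.21). Cyp2a4, a steroid hydroxylase with a near-identical neighbour, Cyp2a5, that may share its reads, had 80.8, 130.2, 68.6 and 65.5 CPM in set A and 56.97, 58.7, 46.2 and 31.5 CPM in set B (log2 fold change -0.84, standard error 0.22). All set B kidneys were below all set A kidneys for Cyp2a4, by a margin smaller than the spread within set A. Abca8a, a lipid transporter of the ABC family, had 7.75, 13.1, 6.39 and 13.01 CPM in set A and 4.04, 1.58, 3.87 and 5.33 CPM in set B (log2 fold change -1.43, standard error 0.39). Abcb1a, the multidrug efflux pump P-glycoprotein, had 12.3, 20.4, 29.6 and 19.03 CPM in set A and 9.67, 6.896, 8.66 and 3.24 CPM in set B, again without overlap (log2 fold change -1.51, standard error 0.49). In the list of organic solute transporters, 9 of 11 genes had a lower estimate in set B, 2 of them, Abcb1a and Slc22a6, at an unadjusted p below 0.05. Over all well-expressed genes, 3211 of 6474 had a lower estimate, and 2.62% of all genes tested were lower at this p.

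**Figure D3:**
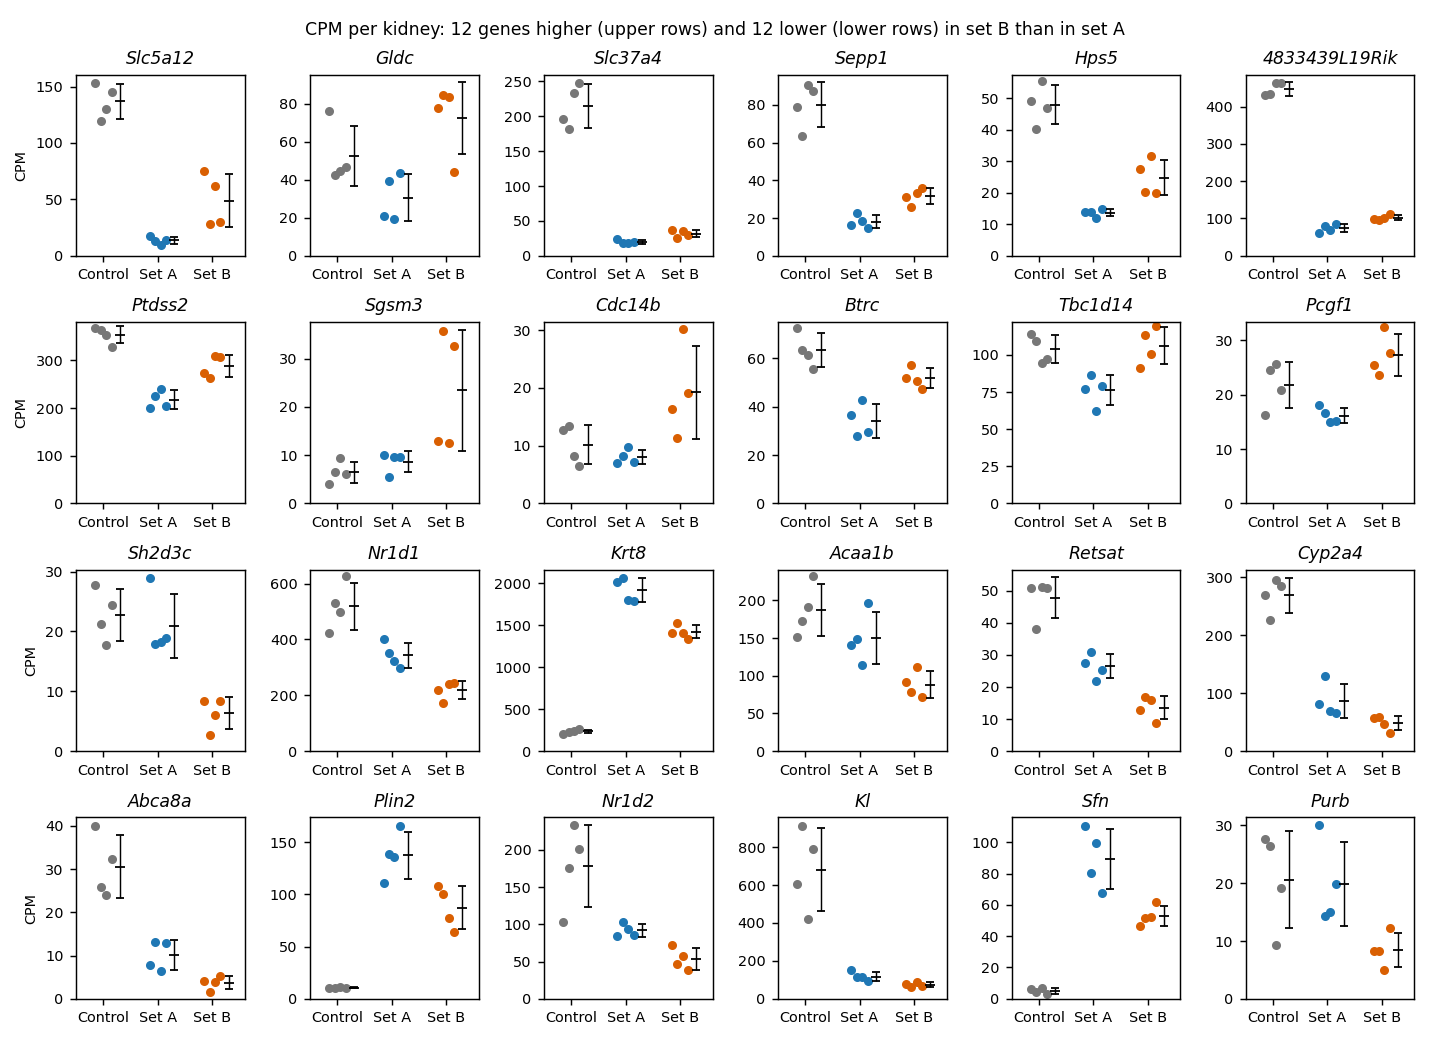
CPM in each kidney (y axes from 0) of the 12 genes higher (upper 2 rows) and the 12 lower (lower 2 rows) in set B with the smallest unadjusted p among well-expressed genes without overlap; points are the 4 kidneys of a group and bars the mean ± SD. Slc5a12 alone passed the adjusted threshold; Krt8, Plin2 and Sfn lie far above the controls in both sets, whereas Slc37a4 and Kl lie far below them.

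Well-expressed injury genes were high in both sets. All 25 well-expressed genes of the tubular injury list passed the adjusted threshold against control in each set. The median log2 fold changes were 3.63 (set A) and 4.38 (set B). Of all genes tested, 22.3% (set A) and 22.8% (set B) passed in either direction. The list named 32 genes, and those below the level limit in both ischemic sets were not counted. This rule favours genes raised by ischemia, so the count of 25 is a description. Between the sets, 2 of the 25 were higher and 2 lower at an unadjusted p below 0.05 (2.41% and 2.62% of all genes tested). Krt8 (chr15:101996711-102004342), a keratin of simple epithelia, was the most precise of these. It had 2015, 2068, 1806 and 1785 CPM in set A and 1408, 1527, 1406 and 1342 CPM in set B, against 209.8, 228, 243 and 259.5 CPM in the controls. The gap between the sets was wider than the range within set B and narrower than the range within set A, and the log2 fold change was -0.43 (95% confidence interval -0.65 to -0.22, standard error 0.10, edgeR adjusted p = 0.462). Krt19, a keratin of the collecting duct and of injured tubules, lay in the opposite order on average, at 144, 91.2, 157 and 175 CPM in set A and 124, 163, 196 and 439 CPM in set B. Its highest value was replicate 4 of set B, the kidney with the highest principal cell sum. S100a6, a calcium-binding protein, had 601, 589, 489 and 289 CPM in set A and 841, 745, 617 and 596 CPM in set B (log2 fold change 0.51, standard error 0.20).

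Havcr1, the usual marker of proximal tubule injury, was at 12.8, 3.98, 14.01 and 14.998 CPM in set A and 20.96, 24.9, 0.58 and 6.29 CPM in set B, so that both the highest and the lowest kidney belonged to set B. The log2 fold change of 0.204 had a standard error of 0.73. Lcn2 had 17.7, 4.45, 9.39 and 20.5 CPM in set A and 9.4, 27.2, 8.95 and 15.7 CPM in set B (log2 fold change 0.23, standard error 0.53). For both genes the spread within a set was larger than the difference, and the 95% confidence intervals (-1.33 to 1.74 for Havcr1 and -0.87 to 1.34 for Lcn2) leave room for a difference of 2-fold in either direction for Havcr1 and upward for Lcn2. Spp1 had 510.3, 464, 553 and 725 CPM in set A and 519.8, 704, 684 and 942 CPM in set B. Sox9, a transcription factor of repairing tubules, had 149, 103, 137 and 102 and 79.7, 73.8, 115 and 106 CPM. Fgg, the fibrinogen gamma chain, had 9.02, 15.2, 3.61 and 15.5 CPM in set A and 31.5, 19.8, 24.5 and 25.7 CPM in set B without overlap, but with a standard error of 0.87 on a log2 fold change of 1.23. Sfn (chr4:133600556-133602168), a 14-3-3 protein of stressed epithelia, had 111, 80.6, 99.8 and 67.5 CPM in set A and 46.8, 51.4, 52.3 and 61.97 CPM in set B, against 6.33, 4.18, 6.83 and 3.11 CPM in the controls. The sets of Sfn did not overlap (log2 fold change -0.76, standard error 0.24, edgeR adjusted p = 0.9299). Gadd45a, a growth arrest gene induced by stress, was at 118, 103, 107 and 108 CPM in set A and 60.4, 80.2, 87.2 and 76.95 CPM in set B, also without overlap (log2 fold change -0.52, standard error 0.22).

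Kl (chr5:150952607-150993817), the co-receptor klotho of the distal tubule, was lower in set B in every kidney. Its values were 151, 112, 114 and 91.9 CPM in set A and 79.9, 60.9, 87.1 and 69.1 CPM in set B, compared with 604, 914, 419 and 791 CPM in the controls. Both sets were far below the controls, at 17.2% and 10.9% of their mean, and the log2 fold change between the sets was -0.66 (standard error 0.20, edgeR adjusted p = 0.9299). None of the 11 well-expressed genes of the distal convoluted and connecting tubule list and none of the 8 of the thick ascending limb list had an unadjusted p below 0.05. Slc12a3, the thiazide-sensitive cotransporter, had 857, 731, 743 and 979 CPM in set A and 675, 893, 919 and 1021 CPM in set B. Slc12a1, the cotransporter of the thick ascending limb, had 159.97, 173, 188 and 197 CPM in set A and 179.6, 192, 124 and 529 CPM in set B, with replicate 4 of set B far above the rest. Its log2 fold change was 0.51 with all kidneys and -0.12 without that kidney. Scnn1g, a subunit of the epithelial sodium channel of the collecting duct, had 6.83, 7.15, 3.35 and 7.35 CPM in set A and 4.92, 12.5, 14.3 and 37.9 CPM in set B, where replicate 4 was again the highest (log2 fold change 1.496, standard error 0.52, and 0.78 without that kidney). Without replicate 4 of set B, the median of the principal cell list went from 0.25 to -0.19 and that of the intercalated cell list from 0.37 to -0.000593. Car12, a carbonic anhydrase, had 76.5, 96.4, 90.9 and 159 and 153, 143, 123 and 173 CPM. Of the 9 well-expressed intercalated cell genes, it alone had an unadjusted p below 0.05 (2.41% of all genes tested were higher at this p).

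No matrix, integrin or cytoskeleton gene passed the adjusted threshold between the sets. Of the 26 well-expressed genes of this list, 22 had a lower estimate in set B and 4 a higher one, with a median log2 fold change of -0.10, against a median of 0.0021 over all well-expressed genes, of which 3211 of 6474 had a lower estimate. At an unadjusted p below 0.05 there were 4 of the 26, all lower, where 2.62% of all genes tested were lower at this p. Col4a2, a collagen of the basement membrane, had 147, 74.3, 111 and 88.4 CPM in set A and 69.2, 65.5, 85.3 and 66.5 CPM in set B (log2 fold change -0.55, standard error 0.21). Itgav and Itgb6 encode the 2 chains of an integrin that activates TGF-beta, and neither overlapped between the sets. Itgav was at 375, 382, 383 and 389 CPM in set A and 291, 351, 325 and 315 CPM in set B, and Itgb6 at 107, 111, 124 and 115 and 99.1, 76.7, 72.9 and 87.6 CPM. The log2 fold changes were -0.25 and -0.44 (standard errors 0.11 and 0.17). Tubb6, a beta-tubulin, had 619, 393, 498 and 276 CPM in set A and 342, 342, 382 and 227 CPM in set B, with overlap. Stromal and pericyte markers, a source of matrix transcripts, summed to 1832 to 4593 CPM in set A, against 2084 to 3835 CPM in set B, and their part in these values was not tested. Among them, Col1a1, a fibrillar collagen chain, had 2167, 1185, 1694 and 732 CPM in set A and 1188, 964, 1998 and 946 CPM in set B.

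Endothelial markers summed to 195 to 321 CPM in set A, against 169.6 to 300.1 CPM in set B. Flt1, a VEGF receptor of endothelial cells, had 12.8, 14.6, 11.3 and 5.96 CPM in set A and 5.896, 5.63, 6.09 and 5.52 CPM in set B, with replicate 4 of set A as the only kidney of that set within the range of set B (log2 fold change -0.95, standard error 0.41). It was the only one of 8 well-expressed endothelial genes at an unadjusted p below 0.05, where 2.62% of all genes tested were lower at this p. Of 22 immune cell markers, 9 were at 3 counts or fewer in all 8 ischemic kidneys, including Cd3e and S100a8, and the list summed to 19.2 to 49.0 CPM in set A, against 20.9 to 55.1 CPM in set B. H2-Aa, an MHC class II chain of antigen-presenting cells, had 26.7, 8.902, 20.2 and 25.6 CPM in set A and 8.19, 10.4, 8.22 and 2.603 CPM in set B. Replicate 2 of set A was within the range of set B, whereas the other 3 were above it (log2 fold change -1.47, standard error 0.39, edgeR adjusted p = 0.697). H2-Eb1, a chain of another MHC class II molecule, had 19.6, 8.82, 10.03 and 8.91 CPM in set A and 5.86, 4.68, 10.1 and 0.127 CPM in set B. C3, the central complement component, which injured tubules also make, lay in the opposite order at 53.7, 78.2, 93.4 and 72.8 and 97.9, 90.7, 192 and 79.8 CPM, with replicate 3 of set B far above the others. Of the globin genes, Hba-a1 and Hba-a2 were listed at 0 in every kidney, and Beta-s had 48.5, 30.9, 36.9 and 25.2 CPM in set A and 31.7, 14.7, 20.02 and 19.2 CPM in set B.

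No gene of redox defence or of the mitochondria passed the adjusted threshold between the sets. In the NRF2 and antioxidant list, 15 of 19 well-expressed genes had a lower estimate in set B (median log2 fold change -0.21), and 2 of them had an unadjusted p below 0.05, against 3211 of 6474 well-expressed genes by the estimate and 2.62% of all genes tested by p. These were Gclm, the regulatory subunit of glutathione synthesis, with 258, 452, 288 and 314 CPM in set A and 279, 283, 240.2 and 147 CPM in set B, and Prdx1, a peroxiredoxin, with 675, 946, 726 and 826 and 616, 782, 613 and 279 CPM. In both genes replicate 4 of set B was the lowest kidney and the sets overlapped. Sepp1 (current symbol Selenop, chr15:3270767-3280510), which carries selenium in plasma, had 16.5, 22.7, 18.7 and 14.6 CPM in set A and 31.3, 26.1, 33.03 and 36 CPM in set B, without overlap (log2 fold change 0.800, standard error 0.20, edgeR adjusted p = 0.652). Its control mean was 80.1 CPM, so set B lay between set A and the controls. Of 25 nuclear genes for respiratory chain subunits, 2 had an unadjusted p below 0.05, both higher in set B, where 5.03% of all genes tested had such a p. Ndufa9, of complex I, had 5.33, 6.805, 6.46 and 12.9 CPM in set A and 11.6, 16.01, 14.4 and 28.1 CPM in set B, and Uqcrc1, of complex III, had 23.5, 41.5, 33.05 and 32.6 and 44.6, 50.8, 48.4 and 37.3 CPM. The median of the list was 0.02. Against control, 22 of the 25 passed the adjusted threshold in each set. Of all genes tested, 22.3% (set A) and 22.8% (set B) passed against control.

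In the list for the TCA cycle and pyruvate entry, with 20 genes and a median of 0.0056, Idh2 (mitochondrial isocitrate dehydrogenase) was at 233, 235, 184 and 265 CPM in set A and 247, 244, 282 and 363 CPM in set B. Dlat, the acetyltransferase of pyruvate dehydrogenase, had 36.6, 35.8, 30.9 and 33.4 CPM in set A and 26.8, 25.2, 26.5 and 22.9 CPM in set B without overlap (log2 fold change -0.43, standard error 0.19). No gene of the 16 glycolysis genes had an unadjusted p below 0.05, and Gapdh, with the highest CPM of them, had 1866, 2324, 2102 and 1767 CPM in set A and 2134, 1665, 1840.05 and 1871 CPM in set B. Among chaperones, Hsp90b1 and Calr, both of the endoplasmic reticulum, were at 329, 349, 318 and 279 and 188, 239, 201 and 195 CPM in set A, and at 366, 405, 458 and 344 and 259.9, 294, 316 and 177 CPM in set B. The estimate was higher in set B for 11 of the 12 well-expressed S phase and mitosis genes (3263 of all 6474), with a median of 0.31, but none had an unadjusted p below 0.05. Plk1, a kinase of mitosis, had 10.7, 21.3, 12.6 and 9.58 CPM in set A and 34.1, 21.9, 40.96 and 14.1 CPM in set B, and its log2 fold change of 1.04 had a standard error of 0.68. Of 32 genes for cytosolic ribosomal proteins, 24 had a higher estimate in set B and 1, Rpl5, an unadjusted p below 0.05 (3263 of 6474 well-expressed genes and 5.03% of all genes tested), at 202, 238, 207 and 205 and 219, 249, 292 and 285 CPM. Histone genes ranged widely from kidney to kidney. Hist1h2bc had 221, 126, 101 and 32.8 CPM in set A and 60.6, 29.5, 70.7 and 12 CPM in set B, and Hist3h2a 233, 118, 148 and 52.6 and 90.02, 34.9, 98.6 and 60.6 CPM. In both sets the lowest and the highest kidneys of Hist1h2bc differed by several-fold, and members of these families share sequence, so that reads may be split between copies.

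Among the other genes higher in every kidney of set B, Hps5, a subunit of a complex that sorts proteins to lysosome-related organelles, had 13.9, 13.9, 12.1 and 14.8 CPM in set A and 27.4, 20.3, 31.5 and 20.1 CPM in set B. Ptdss2, which makes phosphatidylserine, had 200.3, 226, 241 and 205 CPM in set A and 273, 263, 309.8 and 306 CPM in set B, and its controls lay above both at 354 CPM on average. 4833439L19Rik had 61.5, 80.7, 69.6 and 85.4 CPM in set A and 97.4, 96.5, 101 and 111 CPM in set B. The log2 fold changes of these 3 genes were 0.86, 0.402 and 0.45 (standard errors 0.23, 0.12 and 0.13), and none passed the adjusted threshold. Btrc, the substrate receptor of a ubiquitin ligase, had 36.7, 27.7, 42.7 and 29.5 CPM in set A and 52.02, 57.3, 50.8 and 47.4 CPM in set B. Tbc1d14, a regulator of autophagosome formation, had 76.9, 86.4, 62.3 and 79.2 and 91.1, 113, 101 and 119 CPM, and Pcgf1, a Polycomb subunit, had 18.03, 16.6, 14.9 and 15.2 and 25.5, 23.7, 32.4 and 27.6 CPM. Set B was near the control mean for Tbc1d14 (104 CPM) and above it for Pcgf1 (21.8 CPM). Cdc14b, a phosphatase of the cell cycle, had 6.98, 8.26, 9.72 and 7.23 CPM in set A and 16.3, 11.3, 30.2 and 19.05 CPM in set B. Sgsm3, a modulator of small G proteins, had 10, 5.48, 9.54 and 9.58 CPM in set A and 12.8, 35.8, 12.5 and 32.6 CPM in set B. The set B values of Sgsm3 formed a lower and a higher pair, the lower of which was near set A.

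Among the genes lower in every kidney of set B, Sh2d3c (chr2:32721037-32755007), an adaptor protein of cell migration and adhesion, had the smallest p. It had 28.98, 17.8, 18.2 and 18.97 CPM in set A and 8.36, 2.72, 6.04 and 8.38 CPM in set B, against 27.8, 21.2, 17.7 and 24.4 CPM in the controls. Set A was thus at the level of the controls, with replicate 1 as its highest kidney, and set B was below both (log2 fold change -1.72, 95% confidence interval -2.47 to -0.96, standard error 0.36, edgeR adjusted p = 0.316). Purb, a single-stranded DNA-binding repressor, showed the same order, with 30.1, 14.3, 14.98 and 19.9 CPM in set A and 8.32, 8.29, 4.98 and 12.3 CPM in set B and a control mean of 20.6 CPM (log2 fold change -1.23, standard error 0.39).

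The largest estimated differences belonged to genes near the level limit with a wide spread. Hist1h4b had 41.5, 14.6, 17.1 and 3.92 CPM in set A and 11.6, 0.759, 6.62 and 0 CPM in set B, Sema3d 12.7, 4.62, 18.001 and 6.14 and 5.96, 5.06, 0 and 0 CPM, and Twsg1 9.11, 13.01, 2.75 and 15.2 and 2.46, 1.83, 4.59 and 1.97 CPM. Their log2 fold changes were -2.004, -1.903 and -1.88 (standard errors 0.91, 0.96 and 0.70), all with overlap. With a kidney left out, the range was -2.94 to -1.31 for Hist1h4b and -2.63 to -1.49 for Sema3d. In the other direction, Sepw1 (current symbol Selenow) had 4.79, 4.49, 4.69 and 0.542 CPM in set A and 5.96, 4.37, 11.4 and 25.1 CPM in set B. Rundc3a had 3.59, 2.83, 3.39 and 4.82 CPM in set A and 3.27, 3.61, 3.92 and 33.1 CPM in set B, so that its log2 fold change of 1.58 rested on replicate 4 of set B alone and was -0.023 without it. For Sepw1 the log2 fold change was 1.68, and 0.99 without that kidney.

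At the other end, the 5 genes with the highest CPM, not scaled for gene length, differed little. Actb (beta-actin) had 39868, 32339, 37762 and 24896 CPM in set A and 32932, 33715, 31705 and 23974 CPM in set B, where the control mean was 14690.4 CPM. Ahnak, a large scaffold protein, had 20329, 16097, 18263 and 18349 and 18399, 25099, 18162 and 16780.4 CPM, with a control mean of 4529.6 CPM. Myh9, the non-muscle myosin heavy chain, had 10949.7, 8345, 9671 and 8285 and 7502, 8726, 9335 and 8212 CPM, and Eif4g2, a translation factor, 16812, 18344, 16177 and 21253 and 21049, 21719, 17863 and 16692 CPM. Rn45s, the ribosomal RNA precursor, had 21286, 13899, 16236 and 30018 CPM in set A and 15398, 26233, 16356 and 21875 CPM in set B. Their log2 fold changes lay between -0.14 and 0.103, and each 95% confidence interval held 0.

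Over the 36 gene lists, 439 distinct genes were well expressed and 48 of them (10.9%) had an unadjusted p below 0.05, against 5.03% of all genes tested. The lists were chosen with earlier results of these data known, so this share is a description. In 12 lists no gene had an unadjusted p below 0.05, and 16 lists had a median above 0. Among lists of at least 10 genes, the medians closest to 0 were those of the TCA cycle (0.0056), the glucocorticoid-responsive genes (0.0135, and -0.13 without replicate 4 of set B) and the respiratory chain (0.02), whereas the largest for a list of at least 10 genes was that of the early proximal tubule (0.47, and 0.61 without replicate 4 of set B).

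**Figure D4:**
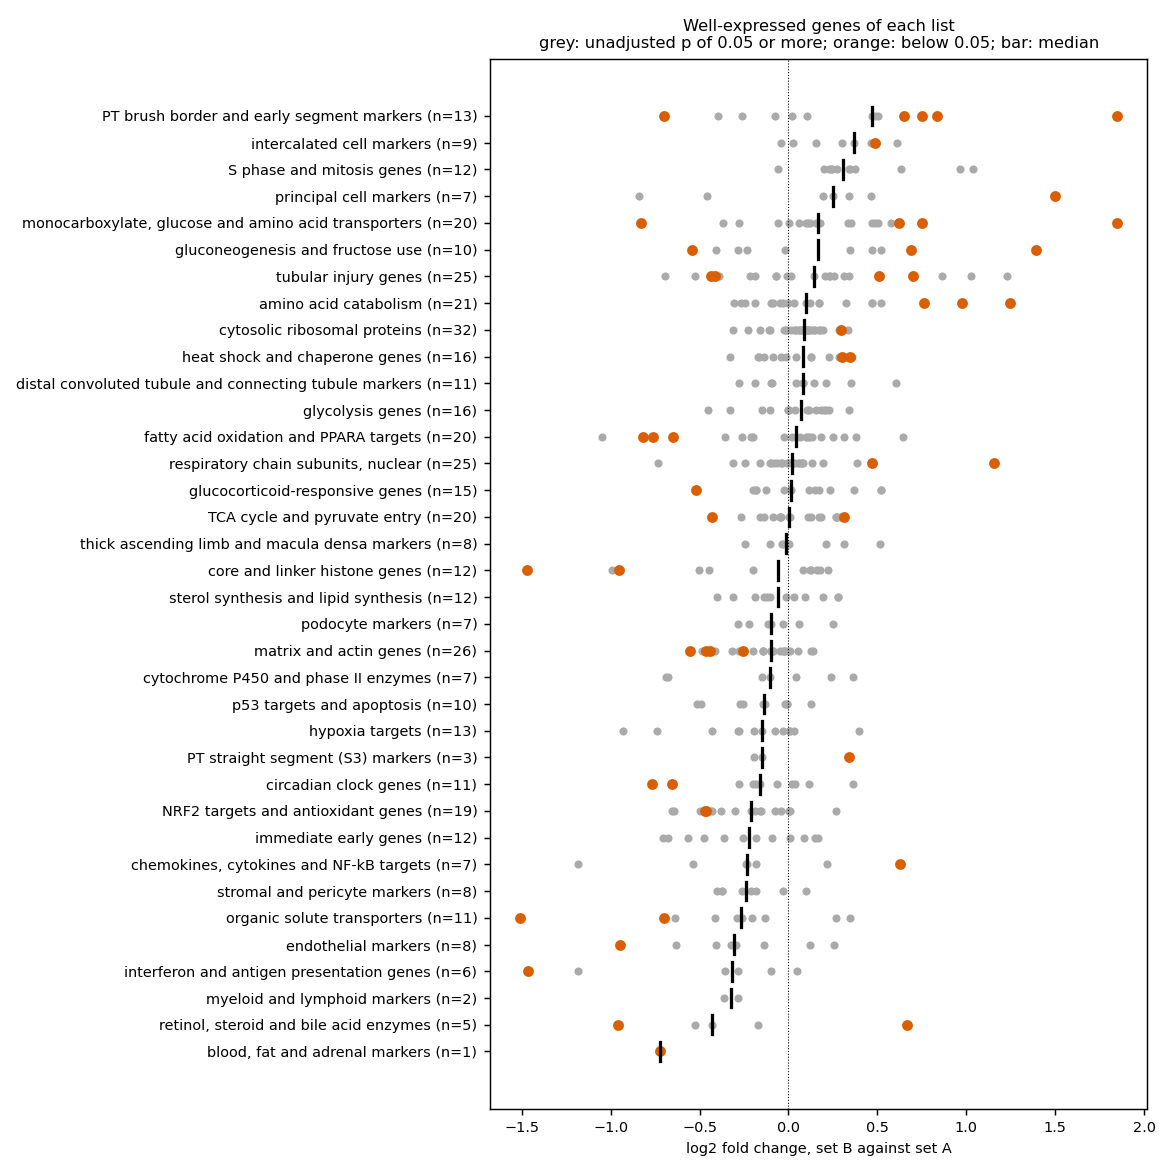
Log2 fold change, set B over set A (x axis), of the well-expressed genes of 36 lists (rows, with the number of genes), each a point, with a bar at the median. Orange points have an unadjusted p below 0.05; most medians lie close to 0, and the early proximal tubule list, with a median of 0.47, holds Slc5a12 at 1.85.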

How the data were processed

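RNA of 12 mouse kidneys, 4 in each of 3 groups, was sequenced from stranded mRNA libraries. Per the study's methods and labels, alignment to mm10 used STAR and gene counting used HTSeq. The authors deposited unnormalized counts for 23420 genes, and 14213 of these were detected. Tool versions, annotation and strand setting are not given in the sources used here. Groups came from the sample titles, and set A and set B are neutral names, since titles and group fields disagree.

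Tests were run in edgeR 4.0.16 under R 4.3.3. The default low-count filter (minimum count 10, minimum total 15) kept 11664 genes, and TMM factors (0.968 to 1.03) scaled the libraries. All 12 kidneys entered a fit with 1 coefficient per group, with a common biological coefficient of variation of 0.762. Set B was tested against set A with a two-sided quasi-likelihood F-test, Benjamini-Hochberg adjusted over all genes tested at a threshold of 0.05. Single genes were also compared with two-sided exact permutation tests, with a prior count of 2 for log2 CPM. The procedure was tested on simulated data. No replicate pair agreed within sampling noise. Positions were taken from RefSeq (GRCm38.p6), which held 97 of the 98 named genes. Python 3.11.15, pandas 2.3.3, NumPy 2.4.6 and matplotlib 3.10.9 were used otherwise.

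Named genes were those passing the adjusted threshold, the 12 higher and 12 lower with the smallest p without overlap, the 4 largest fold changes in each direction, the smallest p and highest CPM of each of 36 lists, Havcr1, Lcn2, Slc5a12 and Slc5a8, the 5 highest by CPM, and the 4 nearest the level limit. Some of them are not reported here. The genes, lists and tests were chosen with earlier results of these data known. Of 717 list genes, 716 were in the table. Alternatives were DESeq2 1.42.0, RLE factors, no filter, only the ischemic kidneys, a replicate block, limma-trend and limma-voom (limma 3.58.1), a robust fit, a fit of well-expressed genes only, other definitions of well-expressed genes, and leaving out each kidney.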

Additional observations from a re-analysis of the deposited data

Results flagged for a closer look

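Slc5a12 differed in its response to ischemia between the sets, with an edgeR log2 fold change of 1.85 (set B over set A), as tested in the contrast of the sets. It was lower than in the controls in both.

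Of 208 groups of 4 kidneys checked, for 103 genes and for the total counts of each set, 14 had a kidney far from the other 3, where chance gives about 1 in 20 such groups. In set A, these were replicate 2 for Sgsm3 (5.48 CPM), Rpl5 (238 CPM) and Atp11a (137 CPM), replicate 1 for Sh2d3c (29.0 CPM) and H2-Eb1 (19.6 CPM), replicate 4 for Sepw1 (0.542 CPM) and Ppargc1a (274 CPM), and replicate 3 for Scnn1g (3.35 CPM). In set B, replicate 4 stood out for Gldc (44.3 CPM), Rundc3a (33.1 CPM), Slc12a1 (529 CPM) and Ppargc1a (357 CPM), replicate 1 for Slc6a19 (35.9 CPM) and replicate 3 for C3 (192 CPM). For Gldc the outlying kidney was the lowest of set B, and for Rundc3a, Slc12a1 and Ppargc1a it was the highest. The figure of 1 in 20 is for independent groups, whereas these genes share kidneys and many were chosen for their differences.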

How the results depend on the processing

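The count of 1 gene at an adjusted p below 0.05, over all genes and over well-expressed genes alike, held with RLE factors, a robust fit, a fit of well-expressed genes only and the replicate block. DESeq2 called 27 genes, 7 of them well expressed (Folh1, Galnt11, Gldc, Krt8, Nr1d1, Sh2d3c and Slc5a12), and no low-count filter gave 6, with 3 well expressed (Folh1, Galnt11 and Slc5a12). The count was 0 with only the 8 ischemic kidneys in the edgeR fit (306 well-expressed genes at an unadjusted p below 0.05), with limma-trend (371) and with limma-voom (381). With each kidney left out in turn, it ranged from 0 to 7 over all genes and from 0 to 5 over well-expressed genes, and was 0 in 10 of the 12 fits. It was highest without replicate 4 of set B (Abat, Folh1, Gatm and Slc5a12 among them), and without replicate 2 of set B it was 3 and 2 (Galnt11 and Slc5a12). The count of well-expressed genes at an unadjusted p below 0.05 went from 258 without replicate 1 of set A to 486 without replicate 4 of set A, and the count without overlap, run after seeing the data, from 295 to 509 against 3 kidneys.

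Replicate numbers were not taken to pair the kidneys. The correlations of same-numbered kidneys, as deviations from the group mean, were -0.02, -0.0022, 0.04 and 0.17 over well-expressed genes. Differently numbered kidneys gave -0.21 to 0.25. So few kidneys cannot settle whether a pairing existed. With the replicate number as a block, 333 well-expressed genes had an unadjusted p below 0.05, in place of 357, and 1 passed the adjusted threshold.

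Of 103 genes followed over 21 settings, the sign of the log2 fold change turned in 26 of the gene and setting pairs, all for genes whose sets overlapped. It was -0.48 with the block, -0.58 with limma-trend, -0.56 with limma-voom and -0.30 to 0.60 with a kidney left out for Havcr1. For Slc34a1 it was -0.011 with the block, -0.0496 with limma-trend and -0.31 to 0.30 with a kidney left out. For Rn45s it was 0.000830 with limma-trend and -0.19 to 0.22 with a kidney left out. With a kidney left out, the ranges that crossed 0 were also -0.20 to 0.54 for Lcn2, -0.052 to 0.32 for Arntl, -0.48 to 0.079 for Col1a1, -0.36 to 0.043 for Per1, -0.12 to 0.76 for Slc5a2, -0.042 to 0.17 for Ahnak, -0.023 to 1.88 for Rundc3a and -0.12 to 0.74 for Slc12a1. Slc5a12 no longer passed in 13 settings. The causes were not tested. Standard errors were largest at 10 to 30 CPM.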
